A study of Drosophila melanogaster with 212 samples.

Results

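The genes described here encode the core of the cAMP and G-protein signalling route in *Drosophila melanogaster*, and they were chosen by name for their function. They are 10 of the 17104 genes listed in a table of read counts for single sorted brain neurons. The G-protein alpha subunits Galphas, Galphai, Galphao and Galphaq, the adenylyl cyclase rut, the phosphodiesterase dnc, the protein kinase A (PKA) subunits Pka-C1, Pka-R1 and Pka-R2, and the transcription factor CrebB make up the set, and every one was found in the table.

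When a ligand binds a G-protein coupled receptor, the alpha subunit of the bound G protein exchanges GDP for GTP and acts on an enzyme. Stimulatory subunits activate adenylyl cyclases, which make cAMP, inhibitory subunits restrain them, and the q class activates phospholipase C. Cyclic AMP releases the catalytic subunits of PKA from its regulatory subunits, phosphodiesterases degrade it, and PKA phosphorylates CREB proteins among other targets. Octopamine and tyramine, the insect counterparts of noradrenaline, act through such receptors, and rut and dnc were both found through fly mutants that learn poorly. Nervy, the protein altered in the mutants studied here, has been described in *Drosophila* as an anchor that binds PKA.

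The cells came from brains of flies of both sexes, either wild type or mutant for nervy, which had been kept in vials of 15 flies up to day 6 after eclosion. All 4 groups carried a membrane-bound GFP reporter by which octopaminergic/tyraminergic neurons were sorted, 1 cell per well. The labels name neither the mutant allele nor the driver of the reporter. Since they name no animal either, each group is 1 sample whatever its number of cells, no test between groups was possible, and no difference below was checked against replicates.

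After filtering, 98 female cells (50 mutant, 48 wild type) and 91 male cells (49 mutant, 42 wild type) remained, with 20875 to 3045780 counts each. The targeted gene nvy was summed as CPM (counts scaled to the library, from all listed genes). It had 9.73 CPM in female mutants against 13.3 in female wild type, and 7.25 CPM in male mutants against 16.7 in male wild type. Female cells with any nvy count went against these sums, being 16 of 50 for mutants and 10 of 48 for wild type. Male cells went with them, at 21 of 49 for mutants and 22 of 42 for wild type. The per-cell median of nvy was 0 CPM in every group except male wild type, which had 0.575 CPM. The male-specific RNA roX1 was read in all 49 mutant and all 42 wild-type male cells, and in 2 cells of each female group, of which wild-type female cell 41 had 7041.8 CPM, a level like that of male cells, and cell 16 of that group 164.2 CPM. Without the 3 female-labelled cells above 100 CPM of roX1, the same genes were past 2-fold in each comparison, and the CrebB ratio of male over female was -1.08 in wild type and -1.10 in mutants. Among the markers of the sorted type, Tdc2, which makes tyramine, was read in all but 8 of 189 cells, Tbh, which makes octopamine, in all but 16, and the vesicular transporter Vmat in all but 3. The 38 cells richest in glial marker RNA, with at least 732.8 CPM of 6 glial markers, comprised 3 mutant and 6 wild-type female cells and 14 mutant and 15 wild-type male cells. All 14 cells with under 100 CPM of Tdc2 were among these 38. The cells outside them with at least 100 CPM of both Tdc2 and Tbh are called Tdc2/Tbh cells here, and they numbered 44 in female mutants, 39 in female wild type, 32 in male mutants and 24 in male wild type. The running numbers in the column headers also split unevenly, with 0 mutant and 8 wild-type female cells but 28 mutant and 20 wild-type male cells numbered 1 to 96. Sex and genotype therefore cannot be fully told apart from this numbering, and ratios within the stretches are given for some genes. Of 19 pairs of near-identical columns, 9 joined mutant with wild-type cells of 1 sex, and those cells were kept in both groups.

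Most genes of the route were read in nearly every cell. Leaving out Galphai, the other 9 genes were all read in 70.4% of the 189 cells, and 6 cells had reads of fewer than 7 of them. Among Tdc2/Tbh cells 71.2% had a read of all 9. Levels of different genes can be compared only per exon length, as TPM (length-scaled counts that sum to the same total in each group). Over all kept cells Galphao had the highest level, 525.2 TPM, and ranked 304th of the listed genes. Pka-R2 with 312.2 TPM, Pka-R1 with 276.3, Pka-C1 with 245.1 and Galphas with 233.5 came next. They were followed by dnc with 140.4 TPM, Galphaq with 73.8, Galphai with 30.1, CrebB with 20.9 and rut with 10. The lengths are those of the single RefSeq transcript counted for each gene, so a cell that uses a shorter transcript has a higher true level than its TPM. For dnc, for example, 17 annotated transcripts run from 2167 to 11128 bases, and the one counted has 8313.

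**Figure D1:**
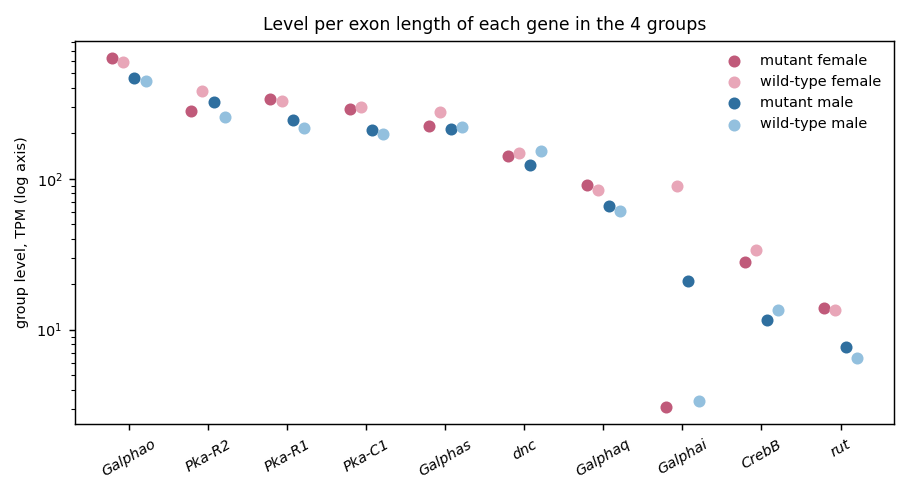
Level per exon length (TPM, log axis) of each of the 10 genes in the 4 groups, 1 point per group, ordered by the level over all cells. Galphao lies highest in all groups, Galphai spreads from 3.07 TPM in mutant females to 88.9 TPM in wild-type females, and CrebB and rut lie lower in both male groups than in both female groups.

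Galphao (2R from 10445116 to 10465701 on dm6, plus strand, 5448 exon bases), a subunit of the inhibitory class that is known to be abundant in neurons, made up 60.9% of the summed TPM of the 4 alpha subunits. It was read in 188 of 189 cells and varied least of the 10 genes, with a coefficient of variation over cells of 0.413. In female cells its CPM ran from 0 over a median of 1584.9 to 2273.0 in mutants and from 325.6 over 1428.8 to 4472.6 in wild type. In male cells it ran from 75.1 over 1141.6 to 3437.3 in mutants and from 54 over 1226.7 to 3442.8 in wild type. The ranges of the groups overlapped broadly. The highest male cells, mutant cell 46 and wild-type cell 40, had 814 and 810 genes with a read, and these maxima may not be independent. On the log2(CPM + 1) scale used for all ratios here, which understates the change of genes with few counts, mutant over wild type gave 0.06 for females and 0.05 for males. Male over female was -0.23 in wild type and -0.24 in mutants. Among males numbered above 96 the ratio of mutant over wild type was -0.55 once near-identical pairs were left out, so its direction turned.

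Galphas (2R from 23942538 to 23946936, plus strand, 1635 exon bases), the subunit that stimulates adenylyl cyclases, made up 27.1% of the alpha subunit TPM and had no read in 6 cells. Its summed level in females was 160.9 CPM for mutants and 198.8 CPM for wild type, a log2 ratio of -0.30. The cells of both groups overlapped, with means of 183.9 and 199.3 CPM and highest values of 462.4 and 510.0. In males the sums were 177.1 CPM in mutants and 181.8 CPM in wild type, a ratio of -0.04. Male over female was -0.13 in wild type, where it turned to 0.19 among cells numbered 1 to 96, and 0.14 in mutants, where the mean of per-cell CPM gave -0.19. In the 38 glial-marker-rich cells it summed to 170.5 CPM, and in Tdc2/Tbh cells to between 164.4 and 203.3 CPM by group.

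Galphaq (2R from 12612740 to 12623197, plus strand, 5637 exon bases), which activates phospholipase C, had 8.56% of the alpha subunit TPM and was read in 187 cells. Its sums were 223.1 and 208.6 CPM in female mutants and wild type, and 187.6 and 172.9 CPM in male mutants and wild type. The log2 ratios of mutant over wild type were 0.10 in females and 0.12 in males, and the male ratio turned to -0.48 among cells numbered above 96 without near-identical pairs. This gene shares 44.1% of its exon bases with CG45086 on the same strand, which lies entirely within it, and how the authors' counting divided the shared reads is not given in the sources used here. CG45086 was the gene whose pattern over cells was most like that of Galphaq, with a Spearman rho of 0.77 over 189 cells, so its level is uncertain.

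Galphai (3L from 6972750 to 6980044, minus strand, 2060 exon bases), which inhibits adenylyl cyclases and is also known from asymmetric cell division in *Drosophila*, stood apart from the other subunits. It had no read in 165 of the 189 cells. Among females a read was found in 4 of 50 mutant and 6 of 48 wild-type cells, and among males in 7 of 49 mutant and 7 of 42 wild-type cells. When each cell was thinned to 190000 reads, the shares in females were 8.89% for mutants (exact binomial 95% interval 2.48 to 21.2) and 11.9% for wild type (3.98 to 25.6). In males they were 13.3% for mutants (5.05 to 26.8) and 12.5% for wild type (4.19 to 26.8). These intervals overlap almost completely. They cover counting error only, as do all intervals here, because amplified reads are not independent molecules and the cells of a group may share animals.

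Only 3 cells held 88.5% of all 5322.5 Galphai counts. Wild-type female cell 11 had 4006.1 CPM and held 96.9% of the counts of its group. It had 7.24 CPM of Tdc2, 3.10 CPM of Tbh and 62316.1 CPM of the summed glial markers, with 0 CPM of repo, a transcription factor of glia. Only 763 genes had a read in it, among 966772 counts. Mutant male cells 50 and 49 had 1070.4 and 666.4 CPM of Galphai and 110984.2 and 41195.0 CPM of the glial markers, with repo at 690.1 and 247.8 CPM. (Cells are numbered in the order of deposition within a group, and the number is only a name.) All 5 cells with at least 100 CPM of Galphai were among the 38 cells richest in glial marker RNA. In these 38 cells Galphai was read in 17. In the Tdc2/Tbh cells it was read in 7 (5.04% of them), of which the highest had 90.5 CPM.

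**Figure D2:**
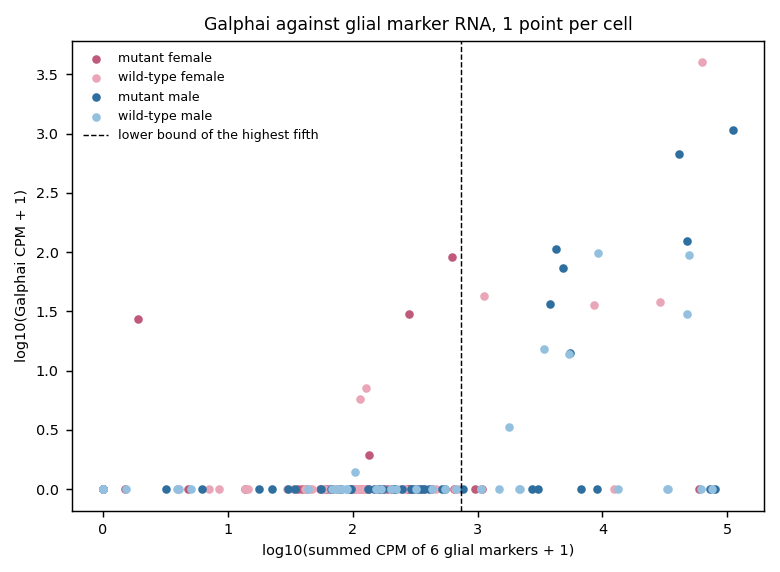
Galphai (log10 of CPM + 1) against the summed CPM of 6 glial markers (log10 of the sum + 1), 1 point per cell and 1 colour per group, with a dashed line at the lower bound of the fifth of cells richest in glial markers. The 5 cells with at least 100 CPM of Galphai lie to the right of the line, and 165 cells lie at 0.

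The group sums of Galphai followed these few cells. In females they were 2.77 CPM for mutants (Poisson 95% interval 2.26 to 3.35) and 80.9 CPM for wild type (78.5 to 83.5). In males they were 21.6 CPM for mutants (20.4 to 23) and 3.48 CPM for wild type (2.97 to 4.09). The log2 ratio of mutant over wild type was -4.44 among females and 2.34 among males. Male over female was -4.19 in wild type and 2.59 in mutants. Without the 38 glial-marker-rich cells the ratio of mutant over wild type became 1.80 in females and -0.02 in males, and male over female in mutants became -1.95. The 4 mutant female Tdc2/Tbh cells with a read summed to 3.10 CPM over that group's 44 such cells, against 0.113 CPM in female wild type, 0 in male mutants and 0.0171 CPM in male wild type. The summed glial marker level itself was 872.7 CPM in female mutants against 2670.8 in female wild type, and 3291.2 CPM in male mutants against 2820.0 in male wild type. Its lowest value among cells was 0 in every group, and its part in the Galphai ratios was not tested beyond these values.

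The enzymes that make and degrade cAMP differed in level and in spread. rut (X from 14787478 to 14826073, minus strand, 9249 exon bases) encodes an adenylyl cyclase that responds to calcium and calmodulin, and it had the lowest level per length of the 10 genes. It had no read in 27 of 189 cells. In female cells rut ran from 0 over a median of 51.8 to 223.1 CPM in mutants and from 0 over 33.6 to 500.8 CPM in wild type. In male cells it ran from 0 over 22 to 131.3 CPM in mutants, while wild type ran from 0 over 23.8 to 149.7 CPM. The male medians were lower than the female ones while the ranges overlapped, and 14 of 42 wild-type and 13 of 49 mutant male cells lay above the female median of their genotype.

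Summed over cells, rut was 56.3 CPM (54 to 58.8) in female mutants and 55.4 (53.3 to 57.5) in female wild type. In males it was 35.5 CPM (33.8 to 37.2) for mutants and 30.3 (28.7 to 31.9) for wild type. The log2 ratio of male over female was -0.85 in wild type and -0.65 in mutants, short of 2-fold. In wild type it was -1.72 among cells numbered 1 to 96 and -0.36 among those numbered above 96. Once the cells of near-identical pairs were left out it was -1.02, also past 2-fold. Wild-type female cell 47, with 500.8 CPM and under 100 CPM of Tdc2, held 22.1% of its group's rut counts and is numbered 84. Without the cell with the most rut counts in each group the wild-type ratio was -0.62. In Tdc2/Tbh cells male over female was -0.46 in wild type and -0.91 in mutants. Mutant over wild type gave 0.02 for females and 0.22 for males. In female Tdc2/Tbh cells it was 0.50, from 61.9 CPM in mutants and 43.4 CPM in wild type. Of the rut exon bases, 4.37% are shared with the noncoding gene CR45522 on the opposite strand, which had between 4.42 and 6.98 CPM in the groups.

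dnc (X, gene from 3176440 to 3343767 with the counted transcript starting at 3289381, plus strand) encodes a phosphodiesterase specific to cAMP and had no read in 4 cells. Its median over cells was 501.6 CPM in female mutants, 499.0 in female wild type, 434.3 in male mutants and 531.4 in male wild type. The highest cells of these groups had 1161.9, 1593.2, 1427.8 and 1816.0 CPM in that order. The medians lay close together beside ranges that started at 0 in each group. The log2 ratio of mutant over wild type was -0.07 among females and -0.32 among males, and male over female was 0.25 in wild type and -0.01 in mutants. Within wild type it was 0.65 among cells numbered 1 to 96 and 0.03 among those above 96. In males the ratio of mutant over wild type was -0.65 among cells numbered 1 to 96. It was 0.23 among cells numbered above 96 once the near-identical pairs were left out, so its sign depended on which cells were compared. The gene most like dnc over the 189 cells was fne, which encodes a neuronal RNA-binding protein of the ELAV family, with a Spearman rho of 0.71 and a Pearson r of 0.82. Among Tdc2/Tbh cells rho was 0.68, and dnc correlated at -0.05 with the total counts of a cell and at 0.20 with its number of genes read.

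Pka-C1 (2L from 9682315 to 9699297, minus strand, 5307 exon bases), the main catalytic subunit of PKA, had no read in 4 cells. Its medians were 611.0 and 664.1 CPM in female mutants and wild type, and 512.2 and 506.6 CPM in male mutants and wild type. Cells of each group started at 0 and reached 1535.2, 4071.3, 1142.5 and 1146.2 CPM in that order. The value of 4071.3 CPM was again that of wild-type female cell 47, which held 14.3% of its group's counts. The sums gave a log2 ratio of male over female of -0.38 in wild type and -0.27 in mutants, and that of mutant over wild type gave -0.04 for females and 0.08 for males. In wild type the ratio of the sexes was -0.65 among cells numbered 1 to 96 and -0.33 among those above 96.

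Pka-R1 (3L from 20816118 to 20836048, plus strand, 3631 exon bases) and Pka-R2 (2R from 9993890 to 10026042, minus strand, 4096 exon bases) encode the type I and type II regulatory subunits, which bind cAMP and hold the catalytic subunit inactive. Pka-R1 summed to 538.6 and 522.5 CPM in female mutants and wild type, and to 447.2 and 400.1 CPM in male mutants and wild type. Its cell medians were 585.9, 524.5, 313.2 and 413.1 CPM in that order. Male over female was -0.38 in wild type and -0.27 in mutants on the log2 scale. The mean of per-cell CPM, which weights every cell equally, gave -0.66 in mutants. In wild type the ratio was -0.72 among cells numbered 1 to 96, and it turned to 0.17 among those above 96 without near-identical pairs, where mutants gave -0.01.

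The summed ratios of Pka-R2 had opposite signs in the sexes. Its sums were 505.6 CPM (498.5 to 512.8) in female mutants and 687.4 CPM (680.1 to 694.8) in female wild type, a log2 ratio of -0.44. For males the sum was 668.2 CPM (661.0 to 675.5) among mutants and 531.9 CPM (525.2 to 538.7) among wild type, a ratio of 0.33. Over single cells it ran from 0 over 515.3 to 2412.4 CPM in female mutants and from 35 over 489.1 to 4132.3 CPM in female wild type. In males it ran from 0 over 443.0 to 3652.9 CPM in mutants and from 0 over 398.4 to 3620.5 CPM in wild type. The highest male cells, mutant cell 24 and wild-type cell 44, were also alike in Pka-R1 (972.3 and 1036 CPM) and Galphao (652.3 and 612.9 CPM). They had 1689 and 1651 genes with a read, so the male maxima may not be independent. The medians were higher in mutants in both sexes, against the sums in females, and the ranges overlapped almost fully. The highest wild-type female cells were the 2 already named, cell 11 with 4132.3 CPM and cell 47, and cell 11 held 11.8% of its group's counts. The highest wild-type male cell, a Tdc2/Tbh cell, held 14.4% of its group's counts. In males the ratio was 0.57 among cells numbered above 96 and -0.38 among those once near-identical pairs were left out. In females it stayed between -0.54 and -0.18 under all 14 alternatives.

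The balance of the regulatory subunits varied between cells. Pka-R1 made up 46.9% of the summed TPM of both over all cells, and in single cells a median of 50.4%, with the 10th percentile at 25% and the 90th at 70.7%. By group the summed share was 54.6% and 46.2% in female mutants and wild type, and 43% and 45.9% in male mutants and wild type. In the 38 glial-marker-rich cells it was 33.5%, against 48.8% in Tdc2/Tbh cells and 56.5% in 12 cells whose Tdc2 reached 100 CPM while their Tbh did not. The TPM of Pka-C1 was 0.416 times that of both regulatory subunits summed. For both Pka-R1 and Pka-R2 the most similar gene over cells was CG1607, with a Spearman rho of 0.60 and 0.51, and its role is not given here.

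CrebB (X from 18366561 to 18377864, plus strand, 3510 exon bases), a transcription factor that PKA can phosphorylate and that is known for its part in long-term memory, had fewer reads in males of both genotypes. In female cells it ran from 0 over a median of 38 to 130.3 CPM in mutants and from 0 over 52.4 to 191.3 CPM in wild type. The lower quartile, median and upper quartile of male cells were 0, 11.7 and 29.5 CPM in mutants and 3.8, 18.1 and 29.3 CPM in wild type, and the highest male cell had 211.5 CPM. The ranges overlapped. Above the female median of their genotype lay 4 of 42 wild-type male cells (9.52%) and 10 of 49 mutant male cells (20.4%). In mutants this was not particular to CrebB, with 9 of 49 male cells for Galphao and 10 of 49 for Pka-R1. The same count over all genes was not made. Thinned to 190000 reads, CrebB was read in 80.0% (65.4 to 90.4) and 81.0% (65.9 to 91.4) of female mutant and wild-type cells. In males the shares were 55.6% (40 to 70.4) for mutants and 75.0% (58.8 to 87.3) for wild type. The intervals of males and females overlapped in both genotypes.

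**Figure D3:**
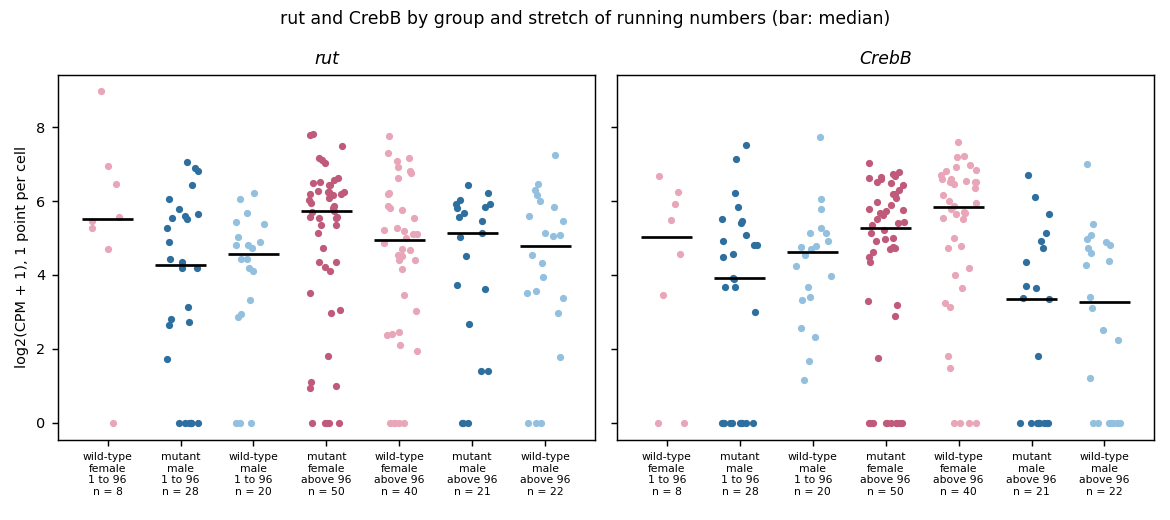
rut and CrebB in single cells as log2(CPM + 1), 1 point per cell, by group and by stretch of the running number in the column headers, with a bar at the median and the number of cells under each column. For CrebB the male medians lie below the female medians of the same genotype in each stretch that holds both sexes, and the points overlap. No mutant female cell is numbered 1 to 96, and above 96 the sexes hold separate spans of numbers.

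The sums of CrebB in females were 43.1 CPM (41 to 45.2) for mutants and 52.6 (50.6 to 54.6) for wild type. In males they were 20.3 CPM (19.1 to 21.6) for mutants and 23.7 (22.3 to 25.2) for wild type. Male over female was -1.12 in wild type and -1.05 in mutants on the log2 scale, past 2-fold in both. Of the 5585 genes that averaged 20 CPM or more over the groups, 0.591% were at least 2-fold lower in males in both genotypes. The direction held in all 15 alternatives in wild type and all 14 in mutants, and 14 and 11 of them were past 2-fold. In wild type the ratio was -0.54 among cells numbered 1 to 96, where there were 8 female cells, and -1.63 among those above 96. In mutants it was -1.40 among cells numbered above 96, and the mean of per-cell CPM gave -0.83. In Tdc2/Tbh cells it was -1.62 in wild type, from 18.1 CPM in males and 57.6 CPM in females, and -1.12 in mutants, from 18.8 and 42 CPM.

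Among glial-marker-rich cells the wild-type order was the other way, with 39.1 CPM of CrebB over 15 male cells and 23.1 CPM over 6 female cells. One of those, wild-type male cell 50, had 211.5 CPM and held 17.9% of its group's CrebB counts. Mutant over wild type was -0.28 among females and -0.21 among males. CrebB lies on the X chromosome, as do rut and dnc, and of the 954 tested genes on the X 5.56% were at least 2-fold lower in males in wild type and 5.35% in mutants, with median ratios of -0.05 and -0.07. CrebB shares 6.89% of its exon bases with por on the opposite strand. The summed por level was 22.3 and 8.46 CPM in female mutants and wild type, and 13.8 and 7.68 CPM in male mutants and wild type, and reads of both genes cannot be told apart there without strand.

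**Figure D4:**
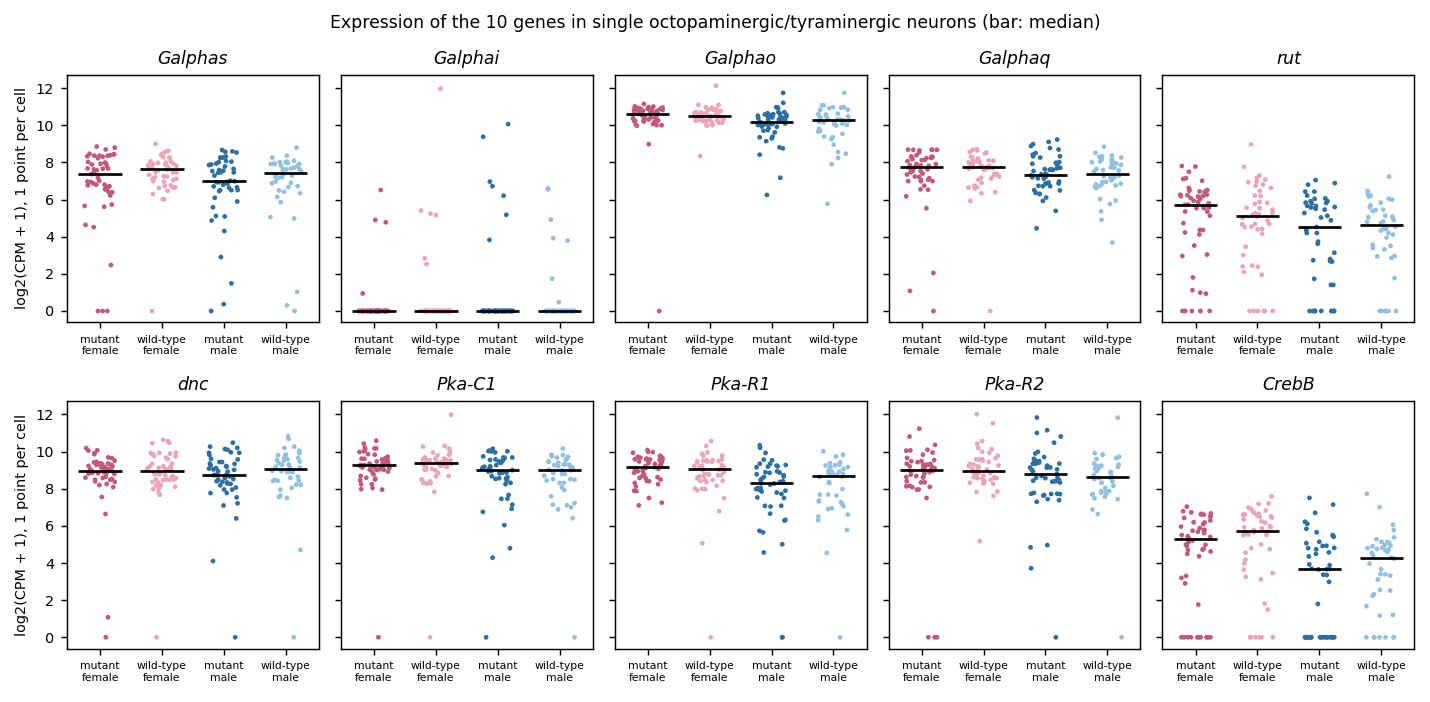
Expression of the 10 genes as log2(CPM + 1), 1 panel per gene and 1 point per cell, in the 4 groups, with a bar at the median. Galphao, dnc and the 3 PKA subunits were read in nearly all cells, Galphai lies at 0 in 165 of 189, and rut and CrebB spread from 0 upward in all groups with lower medians in males.

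Set against all genes, the ratios of the 10 genes between mutant and wild type were mostly small. In females 1 of them, Galphai, was past 2-fold between mutant and wild type, where 4.64% of the 5585 genes were. In males it was again Galphai alone, where 2.42% of genes were. Of the 19 near-identical pairs, 16 were of males numbered above 96, and the 9 that joined genotypes were kept in both groups. Without paired cells, the male ratio of dnc went from -0.32 to -0.44 and that of Pka-R2 from 0.33 to 0.05. The effect of the pairs on the share of all genes past 2-fold was not tested. The median size of the log2 ratio was 0.08 in females and 0.19 in males for the 10 genes, and 0.23 and 0.22 for all 5585. Among the 1892 genes with at least 100 CPM, 1.69% in females and 0.740% in males were past 2-fold. Galphas, Galphao, Galphaq, dnc and the PKA subunits lay above 100 CPM in every group. The medians therefore do not compare genes of like level. Between the sexes Galphai and CrebB were past 2-fold in wild type, where 7.79% of genes were, and the same pair in mutants, where 7.20% were. The median size there was 0.38 in wild type and 0.27 in mutants for the 10 genes, against 0.37 and 0.35. In wild type 9 of 10 ratios of male over female were below 0, all but that of dnc, and in mutants 7 of 10. The median over all 5585 genes was 0.01 in wild type and 0.02 in mutants, and their share below 0 was not counted. The counts of 9 and 7 therefore have no share over all genes to be read against. Some of these signs depended on the cells compared. In wild type above 96 without near-identical pairs, Galphao was at 0.02 and Pka-R1 at 0.17, while dnc was at -0.18. The comparisons share groups, so the ratios of a gene in them are not independent. All 10 genes passed the level of 20 CPM, and Galphai did so only through wild-type female cell 11 and its group.

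**Figure D5:**
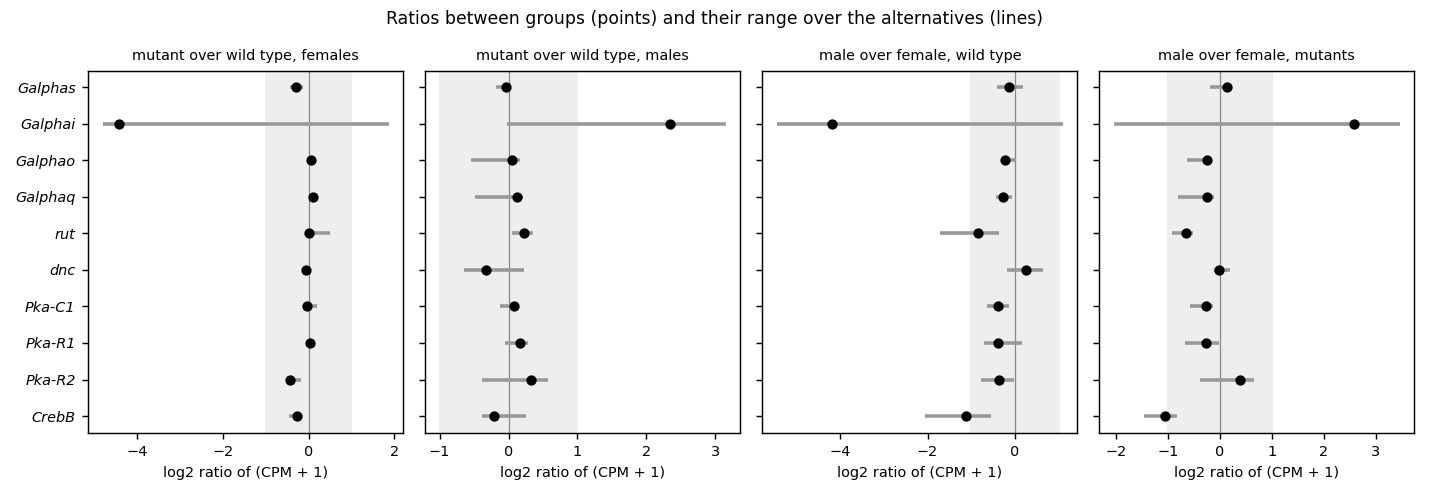
Log2 ratio of (CPM + 1) of each gene in the 4 comparisons (points) and its lowest and highest value over the 14 or 15 alternatives (lines), with the range within 2-fold shaded. Horizontal scales differ between panels. The lines of Galphai cross 0 in every panel, that of CrebB stays below 0 in both comparisons of the sexes, and the points of the other 8 genes lie within 2-fold.

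Correlations between the 10 genes from cell to cell were low. Over the 189 cells the 45 pairs of genes had Spearman correlations from -0.22 to 0.34 with a median of 0.09, as a description of cells that share libraries, depth and animals. The highest was that of Pka-C1 with Pka-R1, with a Pearson r of 0.63, and among Tdc2/Tbh cells its rho was 0.22. Galphas with rut and Galphas with dnc both had a rho of 0.33. Among the 5115 genes compared, none reached a rho of 0.5 with Galphas, Galphai, Galphao, rut, Pka-C1 or CrebB. CR45522, which overlaps rut and lies below the level compared, had a rho of 0.54 with it.

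Other genes of the pathway were taken from 8 lists with 47 genes, of which 31 had at least 20 CPM and 3 had no read in any cell. Between mutant and wild type, 0 of the 31 were past 2-fold in females, against 4.64% of the 5585 genes. In males, where 2.42% of genes were, 0 were higher and 1 was lower, Pde9, a phosphodiesterase, with 41 CPM in mutants and 83.7 in wild type. Between the sexes in wild type, with 7.79% of genes past 2-fold, 1 was higher in males, again Pde9 with a ratio of 1.22, and 1 was lower, Epac, an exchange factor that cAMP activates, with -1.26. In mutants 0 were, against 7.20% of genes, and Pde9 and Epac were singled out after their values were seen. The median ratio of the 31 genes was -0.10 in females and -0.07 in males between genotypes, and -0.19 in wild type and -0.26 in mutants between sexes. Over all tested genes these medians were 0.00, 0.01, 0.01 and 0.02.

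Of the listed beta and gamma subunits, Ggamma1 with 1352.7 TPM and Gbeta5 with 993.0 TPM had the highest levels per length. All ratios of Ggamma1 lay between -0.29 and 0.02, and those of Gbeta5 between -0.16 and 0.31. Among other alpha subunits, cta had 20.9 TPM and Galphaf 0.509 TPM. Among regulators, the receptor kinase Gprk1 had 221.6 TPM and the RGS protein RSG7, a partner of Gbeta5, 121.6 TPM.

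Ac3 was the adenylyl cyclase with the highest level, 75.2 TPM, above Ac76E with 15.8 TPM and rut with 10 TPM. Like rut, Ac3 was lower in males, with 207.6 and 232.2 CPM in female mutants and wild type, and 158.8 and 120.2 CPM in male mutants and wild type. Its ratios of male over female were -0.94 in wild type and -0.38 in mutants, within 2-fold. Of the 12 other cyclases listed, 3 had at least 20 CPM, and all 3 had ratios of male over female below 0 in wild type, within 2-fold. In mutants 2 of the 3 were below 0, with Ac76E at 0.27. The median ratio over all tested genes was 0.01 in wild type and 0.02 in mutants, and the share of them below 0 was not counted. Among cyclases under 20 CPM, CG43373 was at 0.67 and Ac78C at -0.33 in wild type. Among phosphodiesterases, Pde1c, which calcium and calmodulin activate, had 303.0 TPM, above the 140.4 TPM of dnc, and Pde8 had 62.9 TPM. Pde1c summed to 917.2 and 1133.5 CPM in female mutants and wild type, and to 596.8 and 624.9 CPM in their male counterparts, with ratios of male over female of -0.86 in wild type and -0.62 in mutants.

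Of the proteins that anchor PKA, Akap200 had 58.9 TPM and spoon 51.4 TPM. Akap200 ran from 78.2 CPM in female wild type to 111.2 CPM in male mutants, with all 4 log2 ratios between 0.22 and 0.28. spoon had 155.1 CPM in female mutants against 101.3 CPM in female wild type, a ratio of 0.61, and -0.08 in males. The CREB coactivator Crtc had 23.1 TPM and nej, the fly CBP, 9.05 TPM. In the phospholipase C branch the protein kinases C Pkc98E, with 210.5 TPM, and Pkc53E, with 62.7 TPM, had the highest levels. Pkc53E was at 83.9 CPM in female mutants and 151.4 CPM in female wild type, a ratio of -0.84, and at -0.29 in males. inaC, a protein kinase C of photoreceptors, was past 2-fold higher in males in both genotypes but was read in 17 of 189 cells, at 0.446 to 12.5 CPM per group, below the level at which genes were compared.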

How the data were processed

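The authors' values are counts of reads in the exons of 1 RefSeq transcript per gene, made with HOMER on dm6 and not normalized, per the file headers. The submitters' processing notes also name FastQC and edgeR, and the aligner, versions and use of strand are not given in the sources used here. The deposited values came in steps of 0.5 (56.2% of those above 0 were whole) and were therefore handled as estimated counts, and other deposited values were the exon lengths. Fractions were kept in sums and rounded for thinning and intervals. An earlier plan for these data did not foresee the fractions.

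Python 3.11.15 with numpy 2.4.6, pandas 2.3.3, scipy 1.17.1 and matplotlib 3.10.9 was used. Cells under 10000 counts or 500 genes with a read were left out (13 of 212). Columns with a Pearson r of at least 0.95 were called near-identical and averaged within a group. Counts were summed per group, scaled to CPM over the listed genes, and compared as log2(CPM + 1). A ratio of at least 2-fold counted as past the threshold. No doublet caller was run. The positions printed for the members are those of the counted RefSeq transcript, and for dnc also those of the Ensembl gene. Exon overlaps come from the Ensembl annotation of the same build. All 47 listed pathway genes were matched, Itpr through an older symbol. No sequence is printed.

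The members and all lists were chosen with earlier results of these data known. Named beside the members were, per list, the 2 genes highest in TPM and any past 2-fold in 1 direction in both sexes or genotypes, and for each member the most similar gene if rho was at least 0.5. The calculation of ratios was tested on simulated data.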

Additional observations from a re-analysis of the deposited data

Results flagged for a closer look

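Several ratios went in opposite directions beyond counting error, and none of these differences was tested, since each group is 1 sample. For mutant over wild type, the log2 ratio in males minus that in females was 6.78 for Galphai, 0.77 for Pka-R2 and 0.12 for Pka-C1. For male over female, the ratio in mutants minus that in wild type was 6.78 for Galphai, 0.77 for Pka-R2 and 0.27 for Galphas. The values of Galphai and Pka-R2 are the same in both because they are 1 contrast of the same 4 sums. For Galphai, 3 cells held 88.5% of the counts. For Pka-R2, the ratio of mutant over wild type ran from -0.54 to -0.18 in females and from -0.38 to 0.57 in males over the alternatives. For Pka-C1, the female ratio of -0.04 ran from -0.13 to 0.20 and kept its sign in 7 of 14 alternatives. For Galphas, the mutant ratio of male over female of 0.14 became -0.19 with the mean of per-cell CPM.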

How the results depend on the processing

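The count of members past 2-fold was 1, 1, 2 and 2 for mutant over wild type in females and males and for male over female in wild type and mutants. It became 0 in all 4 when only genes with at least 100 CPM were compared, where CrebB and Galphai drop out by construction. Of all 1892 genes at that level, 1.69%, 0.740%, 2.91% and 3.49% were past 2-fold in the same order. In females it was 0 without each group's top cell and among running numbers above 96, with or without near-identical pairs. In males it was 0 without the glial-marker-rich cells and in Tdc2/Tbh cells. For male over female in wild type it was 1 without the top cells, without the glial-marker-rich cells, among numbers above 96 with or without pairs, and in Tdc2/Tbh cells, and 3 without paired cells, where rut was -1.02. In mutants it was 1 with the mean of per-cell CPM, a pseudocount of 5 CPM, without paired cells, and for titles with the letter B.

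Among ratios past 2-fold, only those of Galphai changed sign under an alternative that was run. Its ratio of -4.44 became 1.05 among cells with at least 100 CPM of Tdc2, 1.80 without the glial-marker-rich cells, 0.90 among numbers above 96, 0.91 there without pairs and 1.88 in Tdc2/Tbh cells. In males 2.34 became -0.02 without the glial-marker-rich cells and in Tdc2/Tbh cells. Male over female in wild type, -4.19, became 1.10 with at least 100 CPM of Tdc2, 0.17 above 96 and 0.57 there without pairs. In mutants 2.59 became -1.95 without the glial-marker-rich cells and -2.04 in Tdc2/Tbh cells. The Tdc2/Tbh cells, the numbers above 96 without pairs and the removal of female-labelled cells with roX1 were chosen as alternatives after the data were seen. The stretch from 1 to 96 holds no mutant female cell and gave no value for comparisons with that group. No paired analysis was possible because replicate numbers follow the order of deposition and each group is 1 sample. Of the other single ratios, levels and shares, 321 moved by less than counting error and 297 by more, with no reversal of a value past 2-fold. The limit that a count of 0 allows is 3 counts per group, or 0.0608 to 0.0791 CPM.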
